A study of Mus musculus with 6 samples.

Results

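Toll-like receptors are the receptors by which innate immune cells sense microbial lipids, cell wall components and nucleic acids, and 8 of them were examined here in neutrophils of wild-type and progranulin-deficient mice together with Cd14, a co-receptor, and Myd88, the adaptor that most of them share. The 10 genes (Tlr1, Tlr2, Tlr4, Tlr6, Tlr7, Tlr8, Tlr9, Tlr13, Cd14 and Myd88) were chosen by name and function out of 54532 genes in the deposited table, with earlier results of these data known. The study asked how progranulin (PGRN), a secreted growth factor encoded by Grn, shapes the defense against Candida albicans, a yeast that causes invasive infection. Neutrophils were purified from mouse bone marrow with magnetic beads against Ly-6G, a neutrophil surface protein, cultured for 2 h, and exposed to live C. albicans for 6 h before RNA sequencing. There were 3 libraries from WT mice (replicates 1 to 3) and 3 from PGRN KO mice (replicates 4 to 6).

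Both genotypes were labelled as strain C57BL/6J, and both received the fungus. No library without the fungus was part of the comparison, so the effect of the fungus itself was not measured. The knockout is constitutive, which means that every cell of the mouse lacked PGRN from conception. WT and PGRN KO mice were bought from different suppliers, so that genotype and supplier cannot be told apart. The ratio of fungus to cells is 1:1 in the sample labels, and the study's figure legend for the sequenced cultures gives another ratio. The number of mice per culture is not stated, and the p-values then measure only the spread between these libraries, which may be technical.

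Surface Toll-like receptors recognise lipids and cell wall components, and endosomal ones recognise nucleic acids released from ingested microbes. Most of them recruit MyD88 and IRAK kinases, which leads to NF-kappaB activity and cytokine transcription. In responses to fungi, TLR2 and TLR4 are known as sensors of yeast wall lipids and mannans, and TLR7 and TLR9 as sensors of yeast nucleic acids, beside the C-type lectin receptors.

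The targeted gene followed its labels. The level of Grn, in FPKM (fragments scaled by the length of the gene and by the size of the library), was 168, 161 and 166 in the WT libraries and 0.242, 0.206 and 0.747 in those of PGRN KO. WT libraries held 17290604 to 17799798 fragments on genes, and PGRN KO libraries 17087344 to 18821091. The deposited values were divided by other library sizes, of 16679058 to 17126452 for WT and 17848820 to 19656980 for PGRN KO. This scaling bears on every fold change below, the receptors included. Of all 14807 genes tested, 9.95% were called lower in PGRN KO and 7.94% higher, and the marker counts stand beside these shares. Among 10 neutrophil markers, 8 were not called and 2 (Mmp8 and Csf3r) were lower in PGRN KO. The summed level of the 10 was 67342 to 71953 FPKM in WT and 69108 to 78888 in PGRN KO. Most of this sum came from S100a8, S100a9 and Ngp. All 5 promyelocyte markers tested were higher in PGRN KO, with a sum of 129 to 144 FPKM in WT and 609 to 670.4 in PGRN KO. Of 8 monocyte and macrophage markers tested, 1 (Ly6c2) was higher and 2 (Ccr2 and F13a1) were lower, with sums of 553 to 558 FPKM in WT and 571 to 724 in PGRN KO. Most of these sums was Ly6c2, with a mean of 401 FPKM in WT and 521 in PGRN KO, so they do not describe the other markers. C1qa, a macrophage marker, had 1 fragment over the 6 libraries together. B cell markers summed to 1.82 to 3.21 FPKM in WT and 4.01 to 5.13 in PGRN KO, with 2 of 3 tested higher (Cd79a and Cd79b) and Pax5 at 0 fragments. Plasmacytoid and conventional dendritic cell markers each summed to at most 1.203 FPKM in every library, with Klk1 at 0 and 1 fragment of Siglech in all. Promyelocyte markers and some monocyte markers thus moved with the genotype, as did the receptors below, and their part in the receptor differences was not tested. The marker genes given here by name were picked with their values known.

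Shown first is the coding sequence that Tlr1 and Tlr6 share. These neighbours on chromosome 5 are paralogs, and 454 of the 2976 windows of 50 bases in the longest Tlr1 transcript (15.3%) also occur in Tlr6, as do 139 of 2876 windows of 150 bases (4.83%). No other pair of the 10 genes shares a window of 50 bases. The longest identical run is 229 bases in the coding sequence of both genes, at chr5:64925537-64925765 in Tlr1 and chr5:64953828-64954056 in Tlr6, both on the minus strand of GRCm38 with GENCODE M21 gene models. It is shown because a fragment that lies wholly inside it cannot be assigned to either gene, so the levels of Tlr1 and Tlr6 are uncertain to that extent.
Tlr1 and Tlr6: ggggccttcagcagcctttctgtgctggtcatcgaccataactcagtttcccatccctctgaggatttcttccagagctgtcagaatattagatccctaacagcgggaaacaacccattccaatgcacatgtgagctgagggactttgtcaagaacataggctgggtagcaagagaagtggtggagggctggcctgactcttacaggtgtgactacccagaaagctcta

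Shown next is the DNA before the start of 3 receptor genes whose level was lower in PGRN KO. Promoter windows in the RefSeq table (GRCm38.p6, 250 bases before to 50 after a gene start) matched 7 of the 9 genes looked up, in 9 windows, and Tlr4 and Tlr7 have no entry in that table. Each sequence below is the stretch of the window before the gene start in the deposited table, 5′ to 3′ on the gene's strand. They lie at chr3:83841768-83841858 (minus) for Tlr2, chr9:106222348-106222597 (plus) for Tlr9 and chrX:106143025-106143203 (plus) for Tlr13. Capitals mark letters that match a binding motif of a factor known in myeloid cells: kappaB and C/EBP in Tlr2, PU.1 (GAGGAA) and AP-1 (TGACTCA) in Tlr9, and PU.1 in Tlr13.
Tlr2: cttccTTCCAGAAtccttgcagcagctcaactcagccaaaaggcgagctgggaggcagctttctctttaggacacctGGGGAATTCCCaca
Tlr9: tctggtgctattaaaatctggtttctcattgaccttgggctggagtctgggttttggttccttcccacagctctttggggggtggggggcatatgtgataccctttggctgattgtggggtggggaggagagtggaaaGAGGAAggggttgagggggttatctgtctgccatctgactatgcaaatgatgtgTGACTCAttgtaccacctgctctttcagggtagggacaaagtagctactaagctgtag
Tlr13: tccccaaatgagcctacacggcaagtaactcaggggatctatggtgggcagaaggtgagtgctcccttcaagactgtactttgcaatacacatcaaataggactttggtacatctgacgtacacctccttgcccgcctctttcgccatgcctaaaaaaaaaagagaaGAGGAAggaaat

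Both strands of all windows were searched for kappaB, PU.1 as GAGGAA, C/EBP as TTNCNNAA and AP-1 as TGANTCA, and matches of one motif may overlap those of another. Of the 7 genes with a window, 1 held the kappaB motif (Tlr2), 4 held PU.1 (Tlr1, Tlr8, Tlr9 and Tlr13), 5 held C/EBP (Tlr2, Tlr6, Tlr8, Tlr9 and Tlr13) and 1 held AP-1 (Tlr9). Of 32851 RefSeq promoters of the same length, 8.46% held kappaB, 28.3% PU.1, 40.7% C/EBP and 7.81% AP-1. These shares are per window, whereas a gene above counts if any of its windows matched, so the 2 are unlike measures. Tlr6 held C/EBP in its second window only. Of the genes not called between genotypes, Myd88 held none of the 4, while Tlr8 held 7 matches, of PU.1 and C/EBP. The Myd88 window lies wholly after the start of that gene in the deposited table. These matches describe letters in a window and are no measure of binding.

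In WT neutrophils, Cd14 was by far the most abundant of the 10 transcripts per length, at 2979 ± 133 FPKM (SD, n = 3), 9.23 times Tlr2. Tlr2 was the leading receptor at 323 ± 21.3 FPKM, followed by Myd88 at 89.3 ± 2.27, Tlr13 at 69.0 ± 4.87 and Tlr6 at 28.1 ± 1.67. Tlr1 (17.0 ± 1.75) and Tlr7 (16.3 ± 0.626) were neighbours that did not differ beyond their spread, since their gap of 0.738 FPKM was under the sum of their SDs, 2.37. The same held for Tlr9 (14.4 ± 1.08) and Tlr4 (14.3 ± 0.630), with a gap of 0.156 FPKM against 1.71. Tlr8 was last at 0.510 ± 0.0799 FPKM. In PGRN KO the means kept the same order for the first 6 genes and for Tlr8. Tlr1, Tlr4, Tlr7 and Tlr9 followed each other there without differing beyond the spread of their neighbours by the same rule, with gaps of 0.649 FPKM (Tlr1 to Tlr4), 1.01 (Tlr4 to Tlr7) and 1.30 (Tlr7 to Tlr9) against summed SDs of 2.92, 2.98 and 2.49. FPKM is per gene length, which allows this order, but shared reads limit it for Tlr1 and Tlr6.

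**Figure D1:**
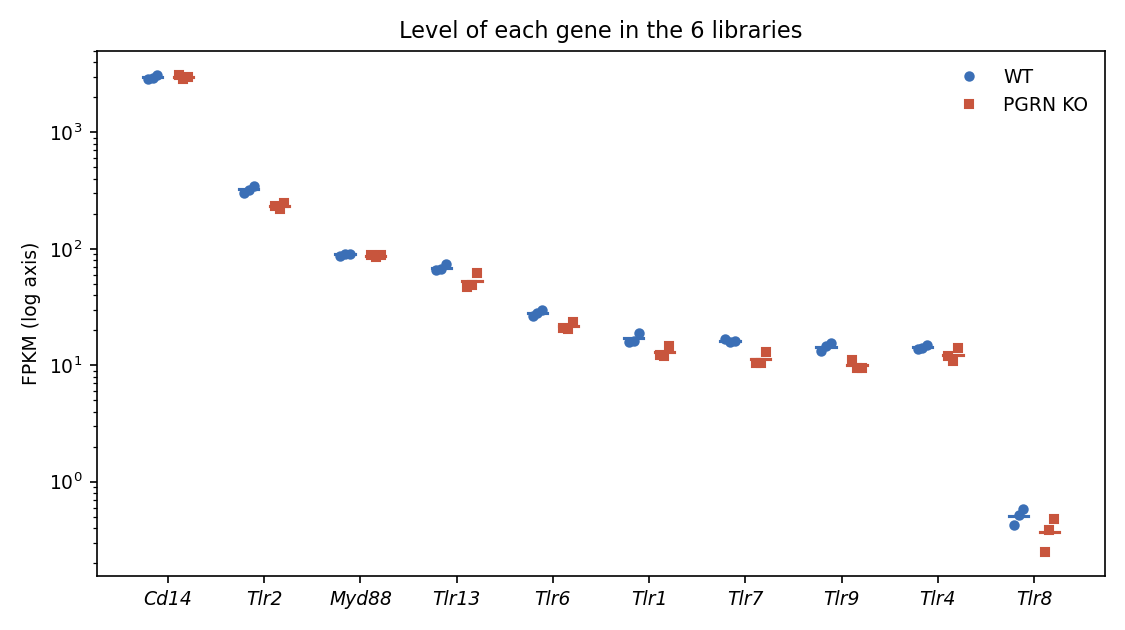
FPKM of each of the 10 genes on a log axis, with 1 point per library and a short line for the mean of the 3 WT or 3 PGRN KO libraries. Cd14 lies near 2980 in both genotypes, Tlr2 at 323 in WT and 233 in PGRN KO, and Tlr8 under 1 in every library.

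Between genotypes, 6 of the 8 receptors were lower in PGRN KO (Tlr1, Tlr2, Tlr6, Tlr7, Tlr9 and Tlr13), and none of the 10 genes was higher, at an adjusted p under 0.05 in limma with Benjamini-Hochberg adjustment over 14807 genes. Of all genes tested, 9.95% were called lower and 7.94% higher. In the same 6 receptors every PGRN KO library lay below every WT library, a separation that 19.6% of all genes tested showed. All 8 receptors had a log2 fold change under 0, with a median of -0.38, while the median over all genes tested was 0.0026. Cd14 and Myd88 were not called. The number of members higher was also 0 at an unadjusted p under 0.05 in limma, and 1 (Cd14) by voom on recovered fragments. Fold changes here are on the scale of log2(FPKM + 1), which understates the change of low genes. In these bulk libraries fewer cells that express a receptor and less RNA per cell cannot be told apart.

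The count of 6 changed when single libraries were left out. It was 1 without PGRN KO replicate 5, where Tlr2 alone was called, 2 without WT replicate 2, 3 without WT replicate 3, 3 without PGRN KO replicate 4, 4 without WT replicate 1 and 7 without PGRN KO replicate 6. The calls over all genes also fell in these fits, from 1473 lower (9.95%) to 775 (5.23%) without PGRN KO replicate 5, 795 (5.37%) without WT replicate 2, and 940 to 1248 (6.35% to 8.43%) in the other 4. All 8 receptors kept a log2 fold change under 0 in each of these fits.

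Among the surface receptors, Tlr2 (ENSMUSG00000027995, chr3:83836272-83841767, minus strand), which forms heterodimers with TLR1 or TLR6 and binds microbial lipoproteins and yeast wall components, stood out by level and by test. It was at 302, 321 and 345 FPKM in WT and at 233, 220.2 and 245 FPKM in PGRN KO. The genotypes did not overlap, and the highest PGRN KO library was well under the lowest WT library. The mean fell from 323 ± 21.3 to 233 ± 12.4 FPKM, a change of -27.9%, with a log2 fold change of -0.47 ± 0.063 (SE) and an adjusted p of 0.0046 in limma. These values rest on 49416 fragments in WT and 39086 in PGRN KO. Tlr2 kept its call in all 17 alternative fits, with an adjusted p of at most 0.0292.

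Tlr1 (ENSMUSG00000044827, chr5:64924679-64933563, minus strand), the partner of TLR2 for triacylated lipopeptides, was at 15.7, 16.3 and 19.0 FPKM in WT, against 12.3, 12.0 and 14.6 in PGRN KO. The groups did not overlap, but the highest PGRN KO value came within about the WT spread of the lowest WT value. Its log2 fold change was -0.37 ± 0.096, with an adjusted p of 0.0428 in limma that passed in 1 of the 6 fits with a library left out, the one without PGRN KO replicate 6. Tlr6 (ENSMUSG00000051498, chr5:64952031-64960097, minus strand), the partner of TLR2 for diacylated lipopeptides, was at 26.3, 28.2 and 29.7 FPKM in WT, against 20.9, 20.6 and 23.6 in PGRN KO. Each PGRN KO library was again below each WT library. The log2 fold change of Tlr6 was -0.36 ± 0.070 with an adjusted p of 0.0162 in limma, which rose to as much as 0.0675 when a library was left out. Reads from the identical stretches shown above may be counted for either gene or for neither.

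Tlr4 (ENSMUSG00000039005, chr4:66827584-66930284, plus strand), the lipopolysaccharide receptor, was at 13.8, 14.1 and 15.0 FPKM in WT and 12.1, 10.9 and 13.9 FPKM in PGRN KO. PGRN KO replicate 6 lay inside the WT range, so the groups overlapped. The log2 fold change was -0.20 with a 95% confidence interval of -0.41 to 0.0063 and an adjusted p of 0.168 in limma, and it passed the test only when PGRN KO replicate 6 was left out (adjusted p 0.0432). These values rest on 4025 fragments in WT and 3819 in PGRN KO. The fold change of Tlr2 (-0.47) lies outside the interval of Tlr4, but the interval of Tlr2 (-0.62 to -0.32) overlaps it. A difference between Tlr2 and Tlr4 in fold change was not tested.

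Because TLR2 acts with partners, its level was also set against theirs within each library. Tlr2 was 19.2, 19.7 and 18.2 times Tlr1 in WT and 19.0, 18.3 and 16.8 times Tlr1 in PGRN KO. These ratios overlapped, with a log2 difference of -0.080 and a two-sided exact permutation p of 0.3 (adjusted over 3 ratios 0.3). The ratio of Tlr2 to Tlr6 was 11.5, 11.4 and 11.6 in WT and 11.1, 10.7 and 10.4 in PGRN KO, a log2 difference of -0.10. The ratio of Tlr2 to Cd14 was 0.105, 0.109 and 0.110 in WT and 0.0751, 0.0765 and 0.0826 in PGRN KO, a log2 difference of -0.47. Neither of the latter ratios overlapped between genotypes, and both had an exact permutation p of 0.1 (adjusted 0.15). Since 3 against 3 libraries allow no p below 0.1, this test could not pass 0.05 for any ratio and does not show whether a ratio differed.

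Of the endosomal receptors, which reach endolysosomes with the chaperone UNC93B1, Tlr7 (ENSMUSG00000044583, chrX:167304929-167330558, minus strand) senses single-stranded RNA. It was at 16.9, 15.7 and 16.1 FPKM in WT and 10.5, 10.4 and 12.96 FPKM in PGRN KO. The genotypes did not overlap, and PGRN KO replicate 6 lay nearest to WT. Tlr7 had a log2 fold change of -0.49 ± 0.087 with an adjusted p of 0.0115 in limma, and the mean was 0.695 times that of WT. The call was lost without PGRN KO replicate 5, at an adjusted p of 0.0505.

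Tlr9 (ENSMUSG00000045322, chr9:106222598-106226883, plus strand), the receptor for unmethylated CpG DNA, was at 13.3, 14.5 and 15.4 FPKM in WT and 11.2, 9.37 and 9.42 FPKM in PGRN KO. Here PGRN KO replicate 4 was the highest of its genotype, and still below every WT library. The log2 fold change was -0.49 ± 0.086 with an adjusted p of 0.0112 in limma, and the mean was 0.693 times that of WT. The adjusted p was 0.0528 without WT replicate 2 and 0.0523 without PGRN KO replicate 5.

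Tlr13 (ENSMUSG00000033777, chrX:106143204-106160493, plus strand), a mouse receptor for bacterial ribosomal RNA, was the most abundant endosomal receptor. It was at 65.9, 66.5 and 74.6 FPKM in WT and 46.9, 48.8 and 61.7 FPKM in PGRN KO. The gap between the genotypes was narrow, since PGRN KO replicate 6 was close to the lower WT libraries. The change of -0.40 ± 0.11 on the log2 scale had a limma adjusted p of 0.0497, just under the threshold, and of the 6 fits with a library left out only the one without PGRN KO replicate 6 kept the call. Tlr8 (ENSMUSG00000040522, chrX:167242696-167264329, minus strand), a relative of TLR7, was at 0.427, 0.518 and 0.586 FPKM in WT and 0.250, 0.384 and 0.482 FPKM in PGRN KO. The groups overlapped at this low level, which rests on 93 fragments in WT and 75 in PGRN KO. Its log2 fold change was -0.14 with a 95% interval of -0.35 to 0.068 and an adjusted p of 0.325 in limma, so Tlr8 was not called. Its mean in PGRN KO was 0.729 times that of WT. With a pseudocount of 0.1 the log2 fold change of Tlr8 was -0.39 (adjusted p 0.329 in limma). The parts of depth and of replicate spread in the missing call were not tested.

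**Figure D2:**
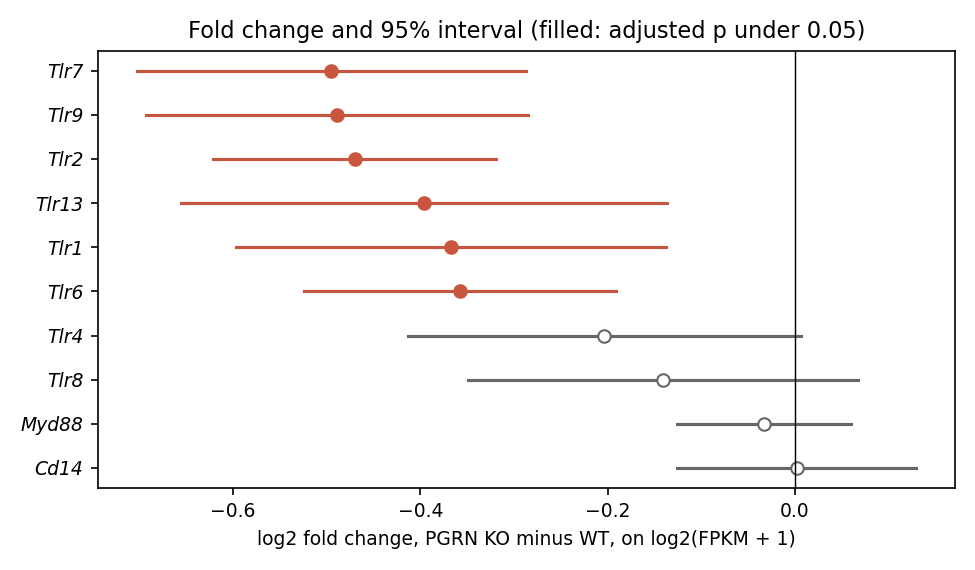
Log2 fold change of each gene (PGRN KO minus WT, log2(FPKM + 1) scale) with its 95% confidence interval from limma, filled where the adjusted p was under 0.05. The 6 called receptors lie between -0.49 and -0.36, Tlr4 and Tlr8 have intervals that reach 0, and Cd14 and Myd88 lie at 0.0016 and -0.033.

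Cd14 (ENSMUSG00000051439, chromosome 18, 36725074 to 36726736, minus strand), a lipid-anchored co-receptor that hands lipopolysaccharide and lipopeptides to TLR4 and TLR2, was at 2870.4, 2939 and 3128 FPKM in WT and 3101, 2880.2 and 2964 FPKM in PGRN KO. The groups overlapped fully. Its log2 fold change was 0.0016 with a 95% interval of -0.13 to 0.13 and an adjusted p of 0.988 in limma. This interval does not reach the fold change of Tlr2. With 237900 fragments in WT and 260826 in PGRN KO, Cd14 had the deepest coverage of the 10 genes. With voom on the recovered fragments, the median of all genes moved up by 0.12. In that fit Cd14 was called higher at 0.12 with an adjusted p of 0.0422, a change about the size of that shift.

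Myd88 (ENSMUSG00000032508, chr9:119335934-119341411, minus strand), the adaptor downstream of all 8 receptors, was at 86.7, 90.4 and 90.8 FPKM in WT and 87.7, 85.5 and 88.5 FPKM in PGRN KO. The values of the genotypes overlapped. The log2 fold change was -0.033 with a 95% interval of -0.13 to 0.060 and an adjusted p of 0.611 in limma. Its sign turned under scalings that set PGRN KO higher (0.086 on plain totals of fragments). The gene overlaps Acaa1a on the other strand at chr9:119339676-119341411, and because no source used here states whether counting used strand, reads in that stretch cannot be told apart.

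The receptors also varied together among the replicates of a genotype. PGRN KO replicate 6 was the highest of the PGRN KO libraries in 7 of the 8 receptors, Tlr9 being the exception, while it was the highest in 35.7% of all genes tested and in 41.3% of the genes called lower. WT replicate 3 was the highest of the WT libraries in 7 of the 8, Tlr7 being the exception, against 34.9% of all genes tested and 43.5% of those called lower. As a percentage of each receptor's WT mean, the median receptor was at 72.1% in PGRN KO replicate 4, 70.8% in replicate 5 and 84.8% in replicate 6. Apart from Tlr9, the receptors of PGRN KO replicate 6 were the nearest to WT. Cd14 in PGRN KO was at 96.7% to 104% of its WT mean and Myd88 at 95.7% to 99.1%. WT replicate 3 was also the highest WT library for Cd14 and Myd88, and PGRN KO replicate 6 the highest PGRN KO library for Myd88. In PGRN KO, however, Cd14 was highest in replicate 4 (104%, against 99.5% in replicate 6). Myd88 was close in the same libraries, at 98.2% in replicate 4 and 99.1% in replicate 6. Whether the order of the replicates was particular to the receptors was not tested.

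**Figure D3:**
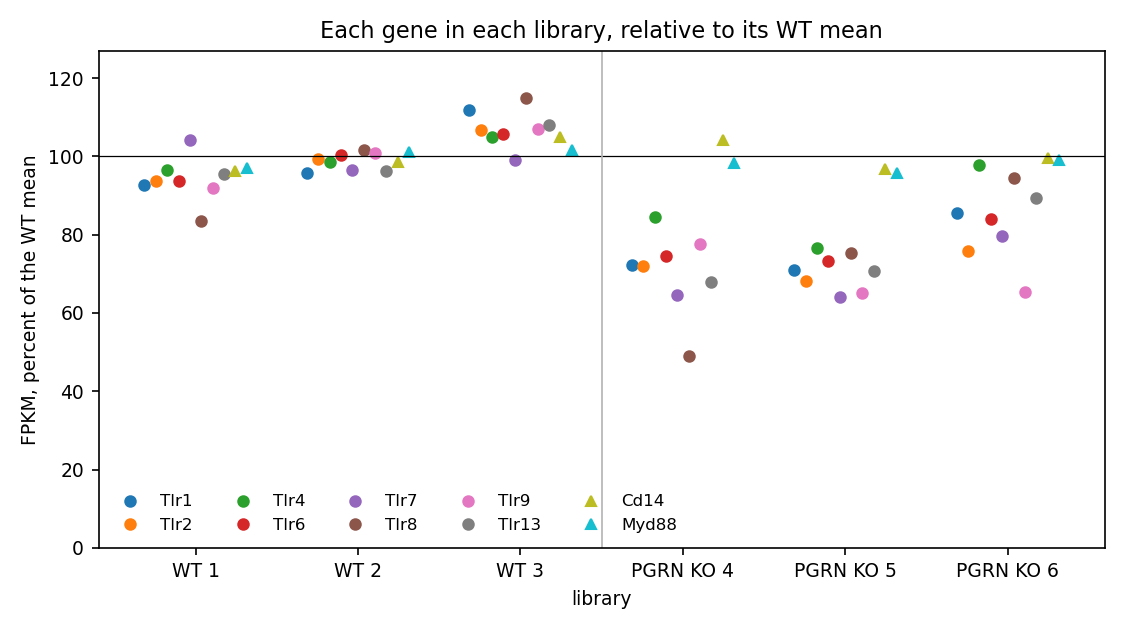
FPKM of each gene in each of the 6 libraries as a percentage of its mean over the 3 WT libraries (line at 100), with circles for the 8 receptors and triangles for Cd14 and Myd88. In PGRN KO replicates 4 and 5 the receptors lie between 49.0% and 84.5%, in replicate 6 between 65.3% and 97.8%, and both triangles stay near 100.

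Tlr2 had the lowest adjusted p of the 10 genes, and the genes whose pattern was most like it were sought among the 3473 whose FPKM averaged at least 10. Over the 6 libraries Gla, which encodes the lysosomal enzyme alpha-galactosidase A, had a Pearson r of 0.998 with Tlr2 on the log2 scale, and Gk, a glycerol kinase gene, also 0.998. Tpd52, which encodes a protein of vesicle traffic, had an r of 0.997. Gla was at 137, 142 and 149 FPKM in WT and 110.2, 105 and 114 FPKM in PGRN KO. They are not set apart sharply, since 366 of the 3473 genes had an r of at least 0.95. All points share the split into genotypes, which by itself gives a high r to any gene lower in PGRN KO.

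The remaining receptors of the family were barely detected. Tlr3, a receptor for double-stranded RNA, had 39 fragments in WT and 46 in PGRN KO, and Tlr5, the flagellin receptor, had 55 and 52. Neither was called, with log2 fold changes of 0.013 (adjusted p 0.911) and -0.037 (adjusted p 0.746) in limma. Tlr11 had 2 fragments in WT and 1 in PGRN KO, and Tlr12 had 0 in all 6 libraries, which allows up to 3 fragments. Both are profilin receptors in mice and were too low to test.

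Of 64 other genes of the pathway, 61 were tested, of which 20 were lower in PGRN KO, 2 were higher and 39 were not called, against 9.95% lower and 7.94% higher among all genes tested. Their median log2 fold change was -0.17. In 28 of them every PGRN KO library lay below every WT library, which 19.6% of all genes tested showed. The 64 genes fell into lists of other receptors, accessory proteins, signalling proteins, negative regulators and induced genes.

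Among 10 accessory genes, which help receptors fold, traffic or bind ligand, 3 were lower and 2 higher. Of all genes tested, 9.95% were called lower and 7.94% higher. Lgmn, which encodes a lysosomal protease that processes endosomal receptors, was at 76.2, 68.3 and 67.3 FPKM in WT and 31.8, 30.7 and 32.2 FPKM in PGRN KO. Its log2 fold change of -1.13 (adjusted p 0.0002 in limma) was the largest of the pathway genes tested on the log2(FPKM + 1) scale. Cd180, a receptor relative, was at 5.14, 4.07 and 5.04 FPKM in WT and 1.55, 2.28 and 2.57 FPKM in PGRN KO, and it changed by -0.88 on the log2 scale (adjusted p 0.0087). Its partner Ly86 was at 2.25, 2.01 and 1.58 FPKM in WT and 0.740, 0.879 and 0.994 FPKM in PGRN KO. The log2 change of Ly86 was -0.65 (adjusted p 0.0091 in limma). In mean FPKM these 3 genes fell alike, by -55.3% (Lgmn), -55.0% (Cd180) and -55.3% (Ly86). The log2(FPKM + 1) scale understates the change of the 2 lower genes, Cd180 and Ly86. CD180 and its partner form a surface complex known mainly from B cells and also found on macrophages. Of the 3 B cell markers tested 2 were called higher. Of the 8 monocyte and macrophage markers tested, Ccr2 (log2 fold change -0.82, adjusted p 0.0020 in limma) and F13a1 (-0.46, adjusted p 0.0126) were lower. Ly6c2 was higher (0.37, adjusted p 0.0447 in limma), and 5 were not called. The part of such cells in the levels of Cd180 and Ly86 was not tested.

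Both genes that rose changed little, and with a library left out 0 pathway genes were called higher without WT replicate 1, 2 or 3 or PGRN KO replicate 5, and 1 without PGRN KO replicate 4 or 6. Unc93b1, the chaperone that carries TLR7, TLR9 and TLR13 to endolysosomes, was at 150.3, 146 and 150.2 FPKM in WT and 160.5, 167 and 164 FPKM in PGRN KO. Its log2 fold change was 0.14 with an adjusted p of 0.0453 in limma, in the direction opposite to the receptors it carries. Lbp, the lipopolysaccharide-binding protein, was at 4.48, 4.51 and 4.496 FPKM in WT and 5.42, 5.72 and 5.25 FPKM in PGRN KO (0.23, adjusted p 0.029). The other 5 were not called: Ly96, the lipopolysaccharide-binding partner of TLR4 (0.033, adjusted p 0.873), Cd36, a scavenger receptor (-0.22, 0.253), the chaperones Hsp90b1 (-0.17, 0.136) and Cnpy3 (-0.032, 0.838), and Slc15a4, a lysosomal transporter (-0.20, 0.0827).

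Of 24 signalling genes 7 were lower and none higher (0 also at an unadjusted p under 0.05 in limma). The shares over all genes tested were 9.95% lower and 7.94% higher. Values in parentheses are the log2 fold change and then the adjusted p in limma. The 4 with the largest change were Pik3ap1, an adaptor to PI3-kinase (-0.64, adjusted p 0.0052), Ikbkg, the regulatory subunit of the IkappaB kinase (-0.59, 0.0014), Irak2, a kinase of the MyD88 complex (-0.41, 0.0046), and Irf5, a transcription factor activated through MyD88 (-0.40, 0.0096). Irak2 was at 170.2, 171 and 173 FPKM in WT and 139, 123 and 125 FPKM in PGRN KO, with no overlap between genotypes. The other 3 called were Ticam1, Tbk1 and Irf7, named after their values were seen. Ikbkg overlaps G6pdx on the other strand, which was at 118 FPKM, and Irak2 overlaps a short unnamed transcript on its own strand, so that their counts may be shared.

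Of 10 negative regulators, 9 were tested and 3 were lower, against 9.95% of all genes tested. Atf3, a transcriptional repressor induced by Toll-like receptors, was at 377, 374 and 372 FPKM in WT and 207, 192 and 200.4 FPKM in PGRN KO. Its log2 fold change was -0.90 with an adjusted p of 0.0001 in limma, and the spread within each genotype was far smaller than the gap. Tnfaip3, which encodes the ubiquitin-editing enzyme A20, had a log2 fold change of -0.51 (adjusted p 0.0144), and Nfkbia, the inhibitor of NF-kappaB, one of -0.26 (adjusted p 0.0491).

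Of 16 genes induced by Toll-like receptors, 7 were lower and none higher (0 also at an unadjusted p under 0.05 in limma). Over all genes tested the shares were 9.95% lower and 7.94% higher. Those with the largest change were the chemokine gene Ccl5 (-0.70, adjusted p 0.0004), the prostaglandin synthase gene Ptgs2 (-0.64, 0.0023), Il10, an anti-inflammatory cytokine (-0.61, 0.0017), and the chemokine gene Cxcl1 (-0.36, 0.0122). Cxcl10, Ccl3 and Cxcl2 were the other 3, named after their values were seen. Ccl5 was at 519, 503 and 551 FPKM in WT and 319, 329 and 316 FPKM in PGRN KO. The cytokine genes Tnf (-0.0057), Il1b (0.068), Il1a (0.026) and Il6 (-0.25), named here after their values were seen, were not called. Tnf was at 1263, 1277 and 1263 FPKM in WT and 1480.0, 1147 and 1186 FPKM in PGRN KO, with the WT values inside the range of PGRN KO.

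**Figure D4:**
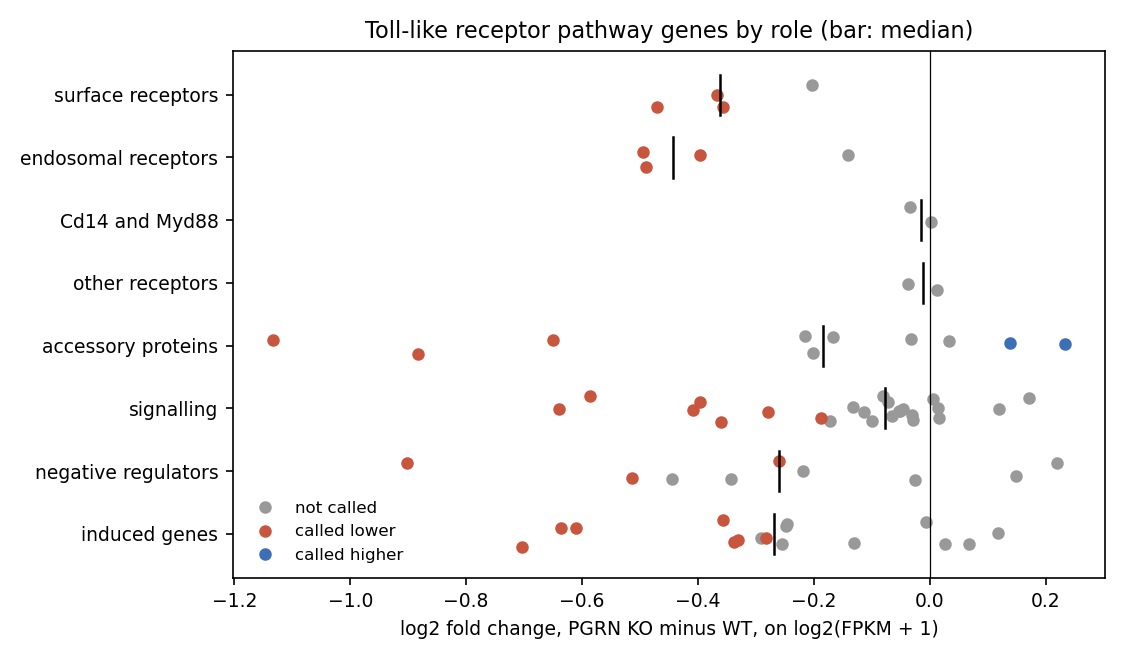
Log2 fold change (PGRN KO minus WT, log2(FPKM + 1) scale) of each tested gene of the member and pathway lists, 1 point per gene, red where limma called it lower and blue where higher, with a bar at the median of each list. Receptors lie between -0.49 and -0.14, Lgmn is the lowest point at -1.13, and the 2 called above 0 are the accessory genes Lbp (0.23) and Unc93b1 (0.14).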

How the data were processed

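RNA from 6 neutrophil libraries was compared, 3 per genotype, with groups and replicate numbers taken from the labels. The authors mapped reads to the mouse genome, counted fragments per gene and deposited FPKM values, that is, counts divided by gene length and library size. The submitters' processing notes name HISAT2 2.0.5, featureCounts 1.5.0-p3, DESeq2 1.20.0 and GRCm38, while the study's methods name HISAT and HTSeq, and this conflict could not be settled. Multiplied by gene length, all deposited FPKM values above 0 (100%) were whole fragments within 0.05, which gave the depth. Fragment numbers cover counting error only.

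The 10 genes and all lists were chosen with earlier results of these data known. PGRN KO was compared with WT on log2(FPKM + 1) in limma 3.58.1 (lmFit, eBayes with trend; R 4.3.3), for the 14807 genes that averaged at least 0.1 FPKM, by two-sided tests whose p-values were adjusted by Benjamini-Hochberg. Ratios of members were compared on the log2 scale by an exact permutation test. Named genes were all members, Grn, all genes of the receptor and accessory lists, the 4 called genes of each other list with the largest fold change, and the 3 genes most like Tlr2. Genes outside this rule are marked in the text as named with their values known. A single gene of the monocyte and macrophage list was left out of that list's counts and sums and is not reported here. Alternatives were other pseudocounts, filters, scalings, eBayes settings, protein-coding genes alone, voom on recovered fragments, and each library left out. Python 3.11.15 read the files.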

Additional observations from a re-analysis of the deposited data

How the results depend on the processing

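Of 11 alternative settings beside the leave-one-out fits, 6 gave the same count of 6 lower members, 4 gave 4 (every gene above 0 tested, quantile normalization, plain totals of fragments, eBayes without trend) and robust eBayes gave 5. Over all genes, calls lower also fell, from 1473 of 14807 to 1173 of 22918 with every gene above 0 tested. They were 1398 with quantile normalization, 934 with plain totals, 1332 without trend and 1456 with robust eBayes. Leaving out 1 library gave 1 to 7 lower members. Tlr1 and Tlr13 account for the calls lost under the settings (adjusted p up to 0.104 and 0.115), and Tlr2 kept its call in all fits. The 8 receptors kept a log2 fold change under 0 in each fit that tested them (Tlr8 was too low for a mean FPKM of at least 1). With plain totals of fragments their changes were smaller than in the main fit. They were -0.35 for Tlr2, -0.25 for Tlr1, -0.24 for Tlr6, -0.38 for Tlr7 and -0.38 for Tlr9. Those of Tlr13, Tlr4 and Tlr8 were -0.28, -0.092 and -0.10. No member was called higher except 1 with voom (Cd14). Myd88 turned above 0 with quantile normalization (0.053), plain totals (0.086) and voom (0.087), uncalled each time, and Cd14 ranged from -0.027 to 0.037 with a library left out. Pathway genes called higher, 2 in the report, were 1 with every gene above 0 tested, without trend and with robust eBayes, 4 with plain totals, 5 with voom, and 0 to 1 with a library left out. Those called lower ranged from 15 to 22 with a library left out, where 5.23% to 8.43% of all genes tested were called lower. Over all genes, 44.4% of calls were higher, against 69.7% with plain totals and 70.4% with voom. The cause of these changes was not tested. No paired analysis was possible because the genotypes share no replicate numbers. Depth limits Tlr8 among the members.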
